A study of Drosophila melanogaster with 3 samples.

Results

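The genes described here encode the core of the Hippo pathway and the transcription factors at its end. The 10 genes, chosen by symbol from the 17896 genes of the deposited table, are *sd* (scalloped), *yki* (yorkie), *Tgi*, *hpo* (hippo), *sav* (salvador), *wts* (warts), *ex* (expanded), *Mer* (Merlin), *kibra* and *Diap1*. Each symbol was found as a single identifier. RNA was sequenced from homozygous *CycC* Y5 larvae, which carry a null allele of the cyclin C gene. Cyclin C is the partner of the kinase CDK8 in the Mediator complex. In total 3 libraries were made, each from 10 whole third-instar larvae pooled at the wandering stage, when larvae leave the food before pupariation. All 3 libraries share this genotype and stage. The authors attribute survival of these homozygotes to the pupal stage to cyclin C supplied by their mothers. The libraries show late larvae after loss of the zygotic gene, and whether maternal cyclin C remained in them was not measured here. Control larvae and *Cdk8* K185 mutants were not analysed here, and every value is therefore a level within *CycC* Y5 larvae and no difference between genotypes is given.

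In the Hippo pathway the kinase Hpo, with its scaffold Sav, activates the kinase Wts, and Wts phosphorylates the co-activator Yki and keeps it out of the nucleus. When the kinases are inactive, Yki enters the nucleus and binds Sd, the TEAD-family DNA-binding protein, and the pair drives genes for growth and cell survival in the imaginal discs, the larval tissues that form the adult wing, eye and leg. Much of this control acts on the Yki protein by phosphorylation, which RNA counts do not measure.

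Libraries 1 to 3 held 10222639, 10179342 and 12146443 counts over genes and transposons, and levels are given as CPM, the count per 1000000 counts of these totals. *CycC* had 0 counts in each. The TMM factors of edgeR (a trimmed mean of log ratios that sets the bulk of genes level between libraries) were 1.05, 1.07 and 0.890. The 3 pools are separate RNA samples by their labels, but nothing says whether the larvae came from separate cultures, so the spread and the p-values describe differences between these samples, and counting error does not cover the amplification of reads. Whole larvae hold many tissues. In such bulk RNA fewer cells of a type and less RNA per cell cannot be told apart. Markers of the wing disc (*vg*, *nub*, *ap*) summed to 69.1, 61.5 and 55.5 TMM-scaled CPM in libraries 1, 2 and 3, with *vg* alone varying in the test described below. Most of this sum came from *ap*, at a mean of 44.2 CPM beside 15.1 for *vg* and 3.28 for *nub*. TMM-scaled log2 ratios of library 3 to the mean of libraries 1 and 2 were -0.51 (*vg*), -0.82 (*nub*) and -0.11 (*ap*). The value of *nub* rests on 37, 44 and 23 counts. Markers of the eye disc (*ey*, *so*, *eya*) summed to 33.2, 32.8 and 31.4 TMM-scaled CPM, and none of them varied. All 10 members had at least 371 counts in every library, and together they took 8694, 8343 and 7527 counts, which is 0.0850%, 0.0820% and 0.0620% of the totals.

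The transcription factors were all well measured. *sd* encodes the only TEAD-family protein of the fly and lies on chromosome X (15804370 to 15827682, plus strand; FBgn0003345), with 22 annotated transcripts that together cover 8766 bp of exons. It was counted 1446 times in library 1, 1246 times in library 2 and 1255 times in library 3, a mean of 122 ± 19.1 CPM (SD, n = 3). Library 1 stood highest, and libraries 2 and 3 were alike once scaled by TMM (135, 114 and 116 TMM-scaled CPM). The counts of *sd* varied between the libraries by more than counting noise (chi-square test of the counts given TMM library sizes, Benjamini-Hochberg adjusted p = 5.47e-05). Without library 1 this call was lost (chi-square test, Benjamini-Hochberg adjusted p = 0.766).

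*yki* encodes the co-activator that binds Sd and is the fly counterpart of YAP. It lies on chromosome 2R (24065975 to 24068485, minus strand; FBgn0034970) and has 1525 bp of exons. Its counts were 630, 582 and 591 in libraries 1, 2 and 3, with a mean of 55.8 ± 6.59 CPM (SD, n = 3). As for *sd*, library 1 was highest and libraries 2 and 3 lay together, at 58.7, 53.4 and 54.7 TMM-scaled CPM, but here the spread was not told from counting noise (chi-square test, Benjamini-Hochberg adjusted p = 0.346).

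*Tgi* encodes a Tondu-domain protein that binds Sd in place of Yki and represses its targets. It lies on chromosome 3L (13486797 to 13502492, plus strand; FBgn0036373), and introns make up most of its span, with 2424 bp of exons in 15696 bp. It was counted 514, 462 and 469 times in libraries 1 to 3, at 44.8 ± 5.86 CPM (SD, n = 3). The order of the libraries was again that of *sd* and *yki*, without passing the test (chi-square test, Benjamini-Hochberg adjusted p = 0.219). The ratio of *Tgi* to *yki* within a library was the steadiest of the 16 ratios computed, with a log2 value per kb of exon of -0.962, -1.002 and -1.002 in libraries 1, 2 and 3. It is the extreme of 16 ratios, and neither gene was told from counting noise. The steadiness was therefore not read as a link between these genes.

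**Figure D1:**
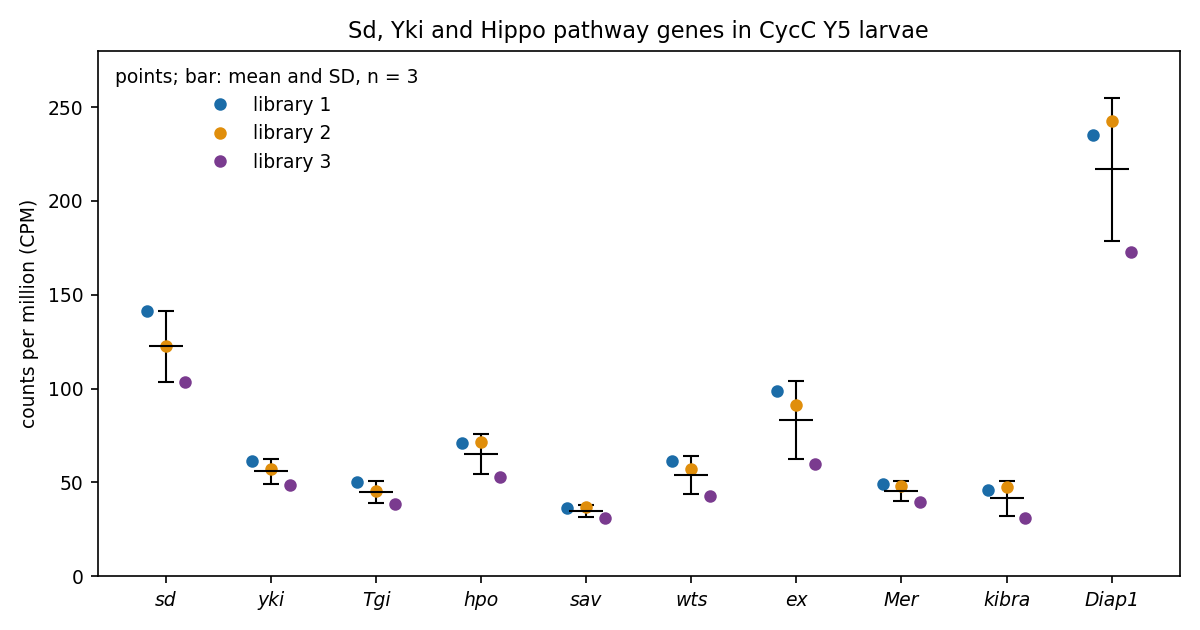
CPM (linear axis from 0) of the 10 genes in the 3 *CycC* Y5 libraries. Points are single libraries and bars give the mean and SD (n = 3). Library 3 is the lowest point of every gene on this scale, and *Diap1* is highest at 217 ± 38.2 CPM.

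The kinase cassette was led by *hpo*. It encodes the Ste20-family kinase at the head of the cassette and lies on chromosome 2R (19493996 to 19496856, minus strand; FBgn0261456), with 2804 bp of exons. Its counts were 723 in library 1, 727 in library 2 and 639 in library 3, with a mean of 64.9 ± 10.7 CPM (SD, n = 3). Libraries 1 and 2 were level and library 3 lower, with a TMM-scaled log2 ratio, library 3 over the mean of both others, of -0.18, which did not pass the test (chi-square test, Benjamini-Hochberg adjusted p = 0.0672). Without library 2 the adjusted p of the same chi-square test, with Benjamini-Hochberg adjustment, was 0.0472.

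*sav* encodes the WW-domain scaffold that holds Hpo and Wts together. It lies on chromosome 3R (23058609 to 23061304, minus strand; FBgn0053193) with 2235 bp of exons. It was the most even of the 10 genes, with 371, 373 and 379 counts and 34.6, 34.2 and 35.1 TMM-scaled CPM in libraries 1, 2 and 3 (chi-square test, Benjamini-Hochberg adjusted p = 0.967). Its mean was 34.7 ± 3.04 CPM (SD, n = 3). *sav* was the only member with library 3 above the mean of libraries 1 and 2 by TMM, by 0.03 on the log2 scale, and with total counts this value was -0.22.

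*wts* encodes the LATS-family kinase that phosphorylates Yki. The gene lies on chromosome 3R (30789625 to 30806619, minus strand; FBgn0011739) with 1 annotated transcript of 5803 bp. Its counts were 630 and 582 in libraries 1 and 2, the same numbers as for *yki*, and 516 in library 3. The values stepped down across the libraries, at 58.7, 53.4 and 47.7 TMM-scaled CPM, and varied beyond counting noise (chi-square test, Benjamini-Hochberg adjusted p = 0.00727). This call was lost without library 1 (0.186) and without library 3 (0.295). The mean of *wts* was 53.8 ± 10.02 CPM (SD, n = 3).

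The upstream regulators carry signals from the apical cell membrane to the kinases. *ex* encodes a FERM-domain protein that recruits the cassette and is itself a known target of Yki in the discs. It lies on chromosome 2L (431227 to 448701, plus strand; FBgn0004583) with 6672 bp of exons. *ex* was counted 1008, 929 and 724 times in libraries 1 to 3, with a mean of 83.2 ± 20.7 CPM (SD, n = 3). No other member had as large a coefficient of variation between libraries. It was lower in library 3 than in the mean of libraries 1 and 2 by 0.42 on the log2 scale (TMM-scaled ratio -0.42; chi-square test over the 3 libraries, Benjamini-Hochberg adjusted p = 1.18e-10). Without library 3 the call was lost, with a Benjamini-Hochberg adjusted p of 0.135 in the chi-square test of libraries 1 and 2.

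*Mer* encodes the fly counterpart of the human tumor suppressor NF2, a FERM-domain protein that acts with Ex and Kibra. It lies on chromosome X (19689697 to 19693500, minus strand; FBgn0086384) with 3400 bp of exons. *Mer* was even across libraries, at 502, 487 and 479 counts and 46.8, 44.7 and 44.3 TMM-scaled CPM (chi-square test, Benjamini-Hochberg adjusted p = 0.751). Its mean was 45.5 ± 5.26 CPM (SD, n = 3).

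*kibra* encodes a WW-domain protein that joins Mer and the cassette at the membrane. It has the longest span of the 10 genes, 26573 bp on chromosome 3R (14697689 to 14724261, minus strand; FBgn0262127), of which 5750 bp are exons. Its counts were 468, 486 and 374 in libraries 1 to 3, with a mean of 41.4 ± 9.27 CPM (SD, n = 3). Libraries 1 and 2 were level, and library 3 was lower, with a TMM-scaled log2 ratio to their mean of -0.35 (chi-square test over the 3 libraries, Benjamini-Hochberg adjusted p = 0.00129). Between libraries 1 and 2 alone the adjusted p, from the same chi-square test with Benjamini-Hochberg adjustment, was 0.889.

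*Diap1* encodes an inhibitor of apoptosis that binds caspases, and it is the classic survival target of Yki and Sd. It lies on chromosome 3L (16038410 to 16051034, minus strand; FBgn0260635) with 6 annotated transcripts and 3143 bp of exons. *Diap1* had the most counts of the 10 genes, 2402, 2469 and 2101 in libraries 1 to 3, or 217 ± 38.2 CPM (SD, n = 3). As for *kibra*, libraries 1 and 2 were alike and library 3 was lower, by a TMM-scaled log2 ratio of -0.21 (chi-square test over the 3 libraries, Benjamini-Hochberg adjusted p = 6.32e-07). Leaving out library 3 ended this call too (chi-square test, Benjamini-Hochberg adjusted p = 0.866).

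**Figure D2:**
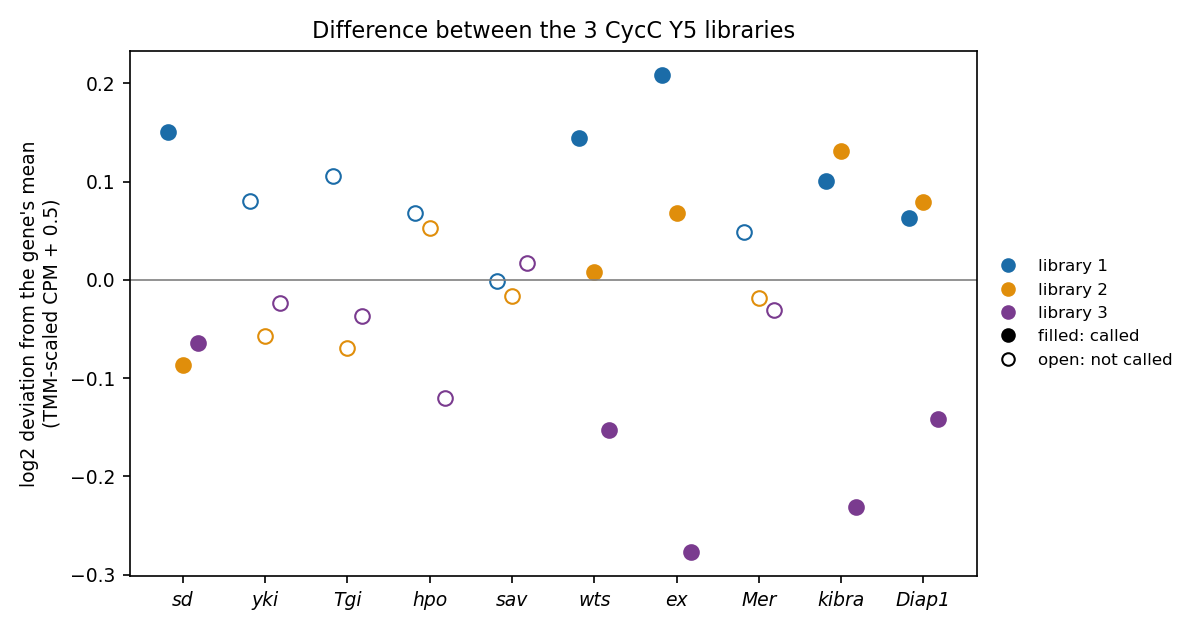
Deviation of each library from the gene's own mean over the 3 libraries, as log2 of TMM-scaled CPM plus 0.5, for the 10 genes. Filled points mark the 5 genes whose counts varied between libraries in the chi-square test. Library 3 lies lowest for *hpo*, *wts*, *ex*, *kibra* and *Diap1* and, by a small margin, *Mer*. For *sd*, *yki* and *Tgi* library 1 lies furthest from the mean, but of these only *sd* varied in the test.

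The order of the levels of different genes was taken per kb of merged exons. On that scale the order was *Diap1* (69.0 ± 12.1 CPM per kb), *yki* (36.6 ± 4.32), *hpo* (23.2 ± 3.80), *Tgi* (18.5 ± 2.42), *sav* (15.5 ± 1.36), *sd* (13.96 ± 2.17), *Mer* (13.4 ± 1.55), *ex* (12.5 ± 3.11), *wts* (9.26 ± 1.73) and *kibra* (7.21 ± 1.61), each a mean with its SD over 3 libraries. *Diap1* was thus 9.57-fold above *kibra* per kb of exon. Among 11382 protein-coding genes with a count, whose median was 9.21 CPM per kb, *Diap1* lay at percentile 91.1, *yki* at 83.0, *sd* at 61.3 and *kibra* at 44.1. The genes of the cassette were thus spread over the order, with *hpo* near its top and *wts* next to its bottom.

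Neighbours in this order were compared by log2 ratios within each library, which need no library scaling. Of 9 neighbouring pairs, 7 kept their order in all 3 libraries with a mean ratio larger than its SD. Among these, the order of *Tgi* above *sav* (0.25 ± 0.09) was lost when exon stretches under other genes were left out of the length (0.000857, exact permutation p = 1.0). The ratio of *sd* to *Mer* (0.16, -0.01 and 0.02 in libraries 1, 2 and 3; mean 0.06 ± 0.09) and that of *Mer* to *ex* (-0.03, 0.04 and 0.38; mean 0.13 ± 0.22) changed sign between libraries, so neither pair was separated. With 3 libraries the exact two-sided sign-flip permutation test cannot give a p below 0.25. That value was reached by 14 of the 16 pairs compared (0.286 after Benjamini-Hochberg adjustment over the pairs), so no order here passed a test.

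Partners in the pathway were set side by side in the same way. Per kb of exon, *yki* was above *sd* by a log2 ratio of 1.32, 1.42 and 1.44 in libraries 1, 2 and 3 (mean 1.40 ± 0.06, exact permutation p = 0.25), and *Tgi* was above *sd* by 0.41 ± 0.04. The co-activator and the repressor of Sd thus both stood above *sd* on this scale, but *sd* has far more annotated exon sequence than a single transcript holds. With the coding length in place of the exons both ratios changed sign, to -0.29 for *yki* to *sd* and -0.97 for *Tgi* to *sd*, and with the listed span *Tgi* to *sd* was -0.88. *Tgi* stood below *yki* on each of these lengths.

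Within the cassette *sav* lay below *hpo* per kb of exon, with a log2 ratio of -0.57 ± 0.12 (SD, n = 3 libraries), and *wts* lay further below, at -1.33 ± 0.07. Both orders held in 3 of 3 libraries. Among the upstream genes *kibra* lay below *Mer* by a log2 ratio of -0.91 ± 0.18, and *ex* lay above *kibra* at 0.78 ± 0.09, again in 3 of 3 libraries. None of these 4 ratios changed sign with the coding length or the listed span.

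**Figure D3:**
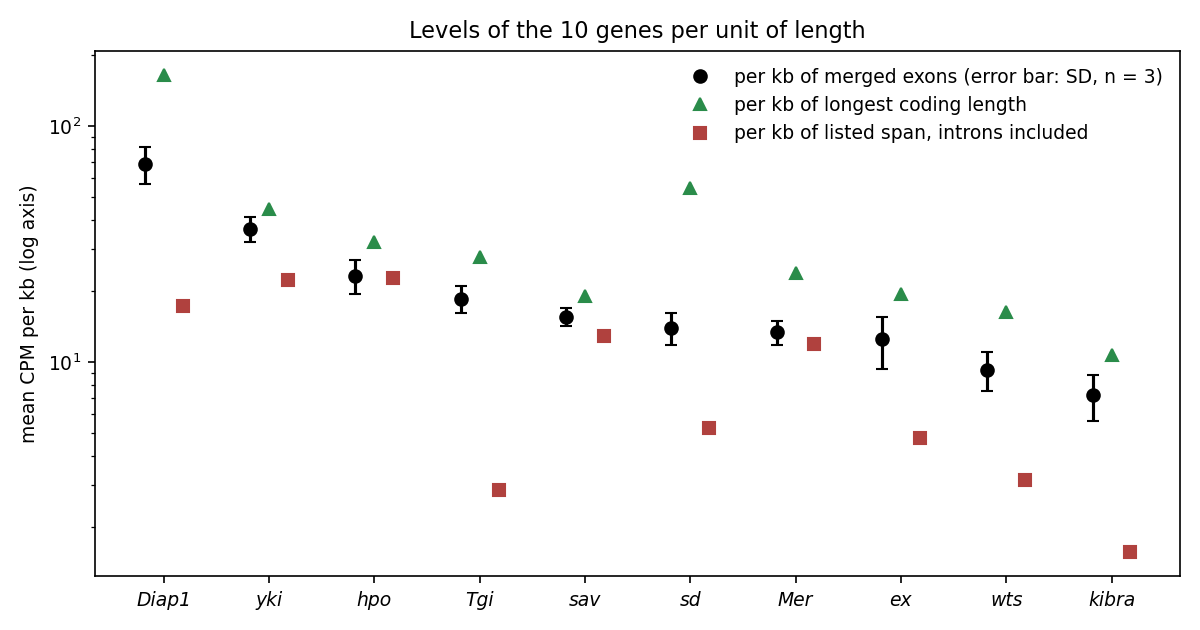
Mean level of the 10 genes in CPM per kb (log axis), with 3 lengths as the divisor. Black points use merged exons, with the SD over 3 libraries as error bars, green triangles the longest coding length and red squares the listed span with introns. *kibra* is lowest on each scale, and *sd* moves from 13.96 with exons to 54.6 with the coding length.

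Variation between libraries in the 10 genes was set against that of all genes. The counts of *sd*, *wts*, *ex*, *kibra* and *Diap1* varied (5 of 10 members), whereas 39.4% of 9898 features (those reaching 10 counts in each library) varied in the same chi-square test. The share of members is near this background and is no result about them. The biological coefficient of variation from edgeR ran from 0.115 for *sav* to 0.162 for *ex*. It is an estimate of the spread between pools that is drawn towards the values of other genes. A low value is therefore no measured excess over counting noise. The counts of *sav* were not told from that noise (chi-square test, Benjamini-Hochberg adjusted p = 0.967). The coefficients of all 10 members were below the common value of 0.171, as were those of 77.8% of the tested features.

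Of the 10 members, 5 both varied and were lower in library 3 than in the mean of libraries 1 and 2, against 19.0% of the tested features. Among features that varied, 48.1% were lower there. For *sd* the call rests on a high library 1, with libraries 2 and 3 level. Counting all members, varying or not, 9 of 10 were lower in library 3 than that mean after TMM scaling, against 51.8% of the tested features, and *sav* was the exception. The median log2 ratio of the members was -0.14, beside -0.01 over all tested features. With total counts in place of TMM these medians were -0.39 and -0.26, and all 10 members were lower. These counts describe 3 libraries, and the test compares libraries and not conditions.

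The members did not share a single pattern. After TMM scaling library 3 was below both other libraries for 6 of the 10 genes (*hpo*, *wts*, *ex*, *Mer*, *kibra* and *Diap1*), against 38.5% of tested features, and library 1 was above both others for 7 of them, against 31.8%. In CPM without TMM, library 3 was below both others for 10 of 10 members and for 72.2% of features. Pair by pair, *sd* differed between libraries 1 and 2 (log2 ratio of library 2 to 1 of -0.24; chi-square test, Benjamini-Hochberg adjusted p = 2.71e-04), where 16.3% of features did, and was the only member to do so. Between libraries 2 and 3, where 29.5% of features differed, *ex*, *kibra* and *Diap1* did (log2 ratios of library 3 to 2 of -0.35, -0.37 and -0.22), and *sd* was level at 0.02. For libraries 1 and 3, where 31.8% of features differed, *sd*, *hpo*, *wts*, *ex*, *kibra* and *Diap1* did. Their log2 ratios of library 3 to 1 were -0.22, -0.19, -0.30, -0.49, -0.34 and -0.21, so in this pair *sd* was lower together with the others.

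Transcripts used as markers of other tissues also differed between the same libraries. The fat body genes *Lsp1alpha*, *Lsp1beta*, *Lsp2* and *Fbp1* summed to 24710, 21856 and 54824 TMM-scaled CPM in libraries 1, 2 and 3, and all of them were higher in library 3. Muscle markers (*Mhc*, *Mef2*, *sls*) summed to 902, 1070.3 and 2592 TMM-scaled CPM, with *Mhc* (log2 ratio of library 3 of 1.79) and *sls* (0.61) higher there and *Mef2* lower (-0.13). Neuron markers (*elav*, *nSyb*, *Syt1*) summed to 148, 146 and 228 TMM-scaled CPM, where *Syt1* was higher in library 3 (0.75) and *nSyb* had a ratio of -0.22 without varying. *elav*, at 1, 0 and 1 counts, overlaps 2 other genes of the table. Library 3, where *ex*, *wts*, *kibra* and *Diap1* were low, thus had the highest sums of fat body, muscle and neuron markers. The sums of the gut and testis markers given below were highest there as well. The sum of the salivary gland glue genes stood highest in library 1, where *sd* was high, at 6134, 2641 and 4482 TMM-scaled CPM. Single glue genes differed. Against the mean of libraries 1 and 2, *Sgs1* (0.68), *Sgs7* (0.31) and *Sgs8* (0.26) were higher in library 3. *Sgs3* (-0.18) and *Sgs5* (-0.40) were lower there, and *Sgs4* is listed at 0 inside the span of *dnc*. Hemocyte markers summed to 276, 231 and 235 TMM-scaled CPM, so library 1 was highest for them too. Their log2 ratios of library 3 were 0.04 (*Hml*), -0.46 (*NimC1*) and -0.16 (*srp*). Gut markers summed to 7430, 6582 and 7984, with ratios of 0.15 (*mex1*), 0.28 (*Jon65Aiii*) and -0.17 (*betaTry*). The testis genes *aly*, *can*, *sa* and *comr* summed to 1.59, 1.65 and 2.40 TMM-scaled CPM, with *sa* listed at 0 inside the span of *rgn*. The part of these tissues in the differences of the members was not tested.

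Other genes of the pathway were taken from 7 lists. In all, 44 listed genes were in the table, of which 42 passed the count minimum and 21 varied between libraries, beside the 39.4% of all features. After TMM scaling 40 of the 42 lay lower in library 3 than in the mean of libraries 1 and 2, with a median log2 ratio of -0.15, beside 51.8% and -0.01 for all tested features. The exceptions were *Wbp2* and *14-3-3zeta*, and both were lower in library 3 in plain CPM. Each list is short, so its count of varying genes was not read as a result about that list. Spans of *Zyx*, *ds*, *dachs*, *app*, *hth*, *E2f1*, *dally*, *Ilp8* and *Dp*, which all varied, overlap other genes of the table.

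Direct partners of Yki and the cassette came first. The 14-3-3 proteins hold phosphorylated Yki in the cytoplasm, and *14-3-3epsilon* was the highest of this list at 338 ± 51.8 CPM per kb of exon, while *Rassf*, whose product restrains Hpo, was lowest at 12.2 ± 2.19. Of the 7 genes 3 varied. *14-3-3epsilon* and *Zyx*, a LIM-domain gene whose product opposes Wts, were lower in library 3, with TMM-scaled log2 ratios of -0.15 and -0.25, and *Wbp2*, a cofactor of Yki, was higher, at 0.04. *mats*, the Mob-family activator of Wts, had 624, 687 and 619 counts in libraries 1, 2 and 3 and did not vary (chi-square test, Benjamini-Hochberg adjusted p = 0.288).

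The kinase genes *Tao*, *msn* and *hppy*, whose products activate Hpo or Wts, all varied and were lower in library 3, with TMM-scaled log2 ratios of -0.21, -0.26 and -0.32. In the STRIPAK phosphatase complex, which inactivates Hpo, the catalytic subunit gene *mts* was the only one of 6 genes to vary, at -0.11. *mts* was also the highest gene of this list, at 124 ± 17.3 CPM per kb of exon, and *Cka* the lowest at 0.816 ± 0.107, with 52, 54 and 50 counts. The span of *Cka* partly overlaps that of *CG7367*, which had 38, 47 and 23 counts in libraries 1, 2 and 3. How reads on the shared stretch were assigned is not given, so the level of *Cka* is uncertain.

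The Fat-Dachsous branch links the pathway to atypical cadherins at cell contacts. Its 2 cadherin genes were both lower in library 3, *ft* with 981, 913 and 742 counts and *ds* with 930, 848 and 666, at TMM-scaled log2 ratios of -0.35 and -0.42. The myosin gene *dachs* (-0.35) and the palmitoyltransferase gene *app* (-0.15) varied as well, and the other 4 of 8 genes did not. Per kb of exon the list ran from *Fbxl7* at 3.90 ± 0.682 to *lft* at 37.2 ± 5.13 CPM. The span of *Fbxl7* overlaps 4 other genes of the table, so its level is uncertain too. Among apical adaptors *crb*, whose product binds Ex at the membrane, was highest at 13.1 ± 2.78 CPM per kb and was lower in library 3 by -0.32 on the TMM-scaled log2 scale. *sdt*, its partner, followed at -0.14, and the 4 remaining genes of this list did not vary, with *Schip1* lowest at 2.59 ± 0.712 CPM per kb.

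Sd and Yki each work with other partners in particular tissues. *vg*, which makes Sd a wing selector factor, had 202, 154 and 125 counts in libraries 1, 2 and 3 and was the lowest of its list at 3.87 ± 1.22 CPM per kb of exon. It stepped down across the libraries, with a TMM-scaled log2 ratio of library 3 of -0.51, and it is also a marker of the wing disc list above. *hth* (-0.30) and *tsh* (-0.36), which work with Yki in the eye disc, varied too, with *tsh* highest at 17.7 ± 4.06 CPM per kb, and *nerfin-1* did not.

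Among 8 genes listed as targets of Yki and Sd, *Myc* and the microRNA gene *mir-ban* were at 0 in every library. *Myc* lies inside the span of *lncRNA:CR44999* and *mir-ban* inside that of *lncRNA:CR43334*. In this table genes nested in another gene are at 0 almost without exception (1831 of 1831 on the opposite strand and 1335 of 1337 on the same strand), so these zeros were not read as a level. The host genes themselves had 11, 7 and 9 counts (*lncRNA:CR44999*) and 6, 9 and 7 counts (*lncRNA:CR43334*), and how the zeros arose was not tested. Of the 6 measured targets 4 varied, all lower in library 3. Among all tested features 39.4% varied, and 19.0% varied and were lower there. Since 40 of the 42 measured pathway genes were lower in library 3, this is no trait of the targets. *wg*, the Wnt ligand of the discs, had 207, 209 and 150 counts (TMM-scaled log2 ratio -0.47). *Ilp8*, the hormone of damaged or overgrown discs, had 43, 51 and 26 (-0.85), the lowest of the list at 4.37 ± 1.71 CPM per kb of exon. *Ilp8* passed narrowly at these low counts (chi-square test, Benjamini-Hochberg adjusted p = 0.0468). Its span partly overlaps that of *CG7730*, which had 76, 80 and 70 counts. *dally*, a glypican, was at -0.20, and *E2f1* at -0.13 with the highest level, 33.8 ± 5.005 CPM per kb. *CycE* and *vn* did not vary. Of the partners of E2f1, *Dp* varied (-0.14; 40.0 ± 6.01 CPM per kb) and *Rbf* did not (20.8 ± 2.56).

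**Figure D4:**
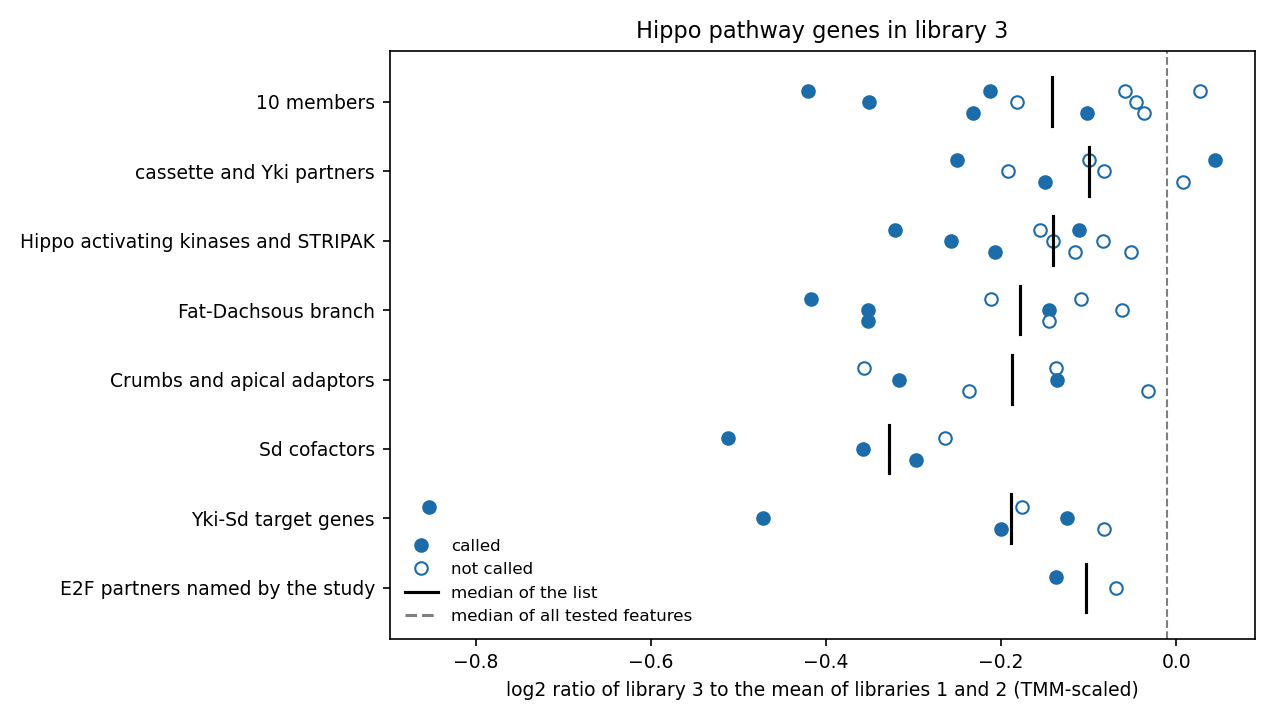
Library 3 over the mean of libraries 1 and 2, as a TMM-scaled log2 ratio (horizontal axis), for the 10 members and the 42 measured genes of the 7 pathway lists. Filled points varied between libraries in the chi-square test, black lines are the medians of lists and the dashed line is the median of all tested features (-0.01). The member median is -0.14, and *Ilp8* lies furthest to the left at -0.85, on 43, 51 and 26 counts in libraries 1, 2 and 3.

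The genes whose pattern over the 3 libraries was most like that of *sd* and *yki* were found among 7345 features with a mean count of at least 100, by the Euclidean distance between deviations of log2 values from the gene's own mean. Nearest to *sd* were *Aef1* (distance 0.00296; 529, 456 and 458 counts), *Patr-1* (0.00475) and *Taf3* (0.00482). For *yki* they were *CG2691* (0.00290; 593, 549 and 556 counts), *Pld3* (0.00362) and *Hinfp* (0.00387). With 3 points per gene many features lie close by, and these names describe the libraries only.

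The counts of a few members depend on how shared sequence was counted. The spans of 6 members overlap 9 other genes of the table, and the other 4 (*yki*, *Tgi*, *Mer* and *kibra*) overlap none. Of the 9 genes, 6 lie inside a member and are at 0 in every library: *lncRNA:CR44384* and *CG8509* in introns of *sd*, *mir-1013* in an intron of *wts*, *lncRNA:CR43717* in *ex*, and *lncRNA:CR43951* and *asRNA:CR45889* in *Diap1*. The other 3 share exonic ends with a member. *crq*, on the opposite strand, covers 448 bp of *ex* exons and had 2935, 2848 and 3273 counts. *Rep* covers 130 bp of *hpo* on the opposite strand, and *Ctns* covers 348 bp of *sav* exons on the same strand with 6, 3 and 4 counts. Other genes thus lie over 15.6% of the exon length of *sav*, 11.0% of *Diap1*, 6.71% of *ex* and 4.64% of *hpo*. Leaving those stretches out of the length moved *sav* to 18.4 CPM per kb and moved no other member by more than its SD. How reads on these stretches were assigned is not given in the sources used here, so reads of *ex* and *crq* there cannot be told apart. Genes that lie only in introns, such as *CG8509* in *sd*, are also at 0, and all 17896 listed lengths are whole spans. Whether reads in introns were counted for the members is not given and was not tested. The length of merged exons may therefore differ from the length over which reads were counted, for any member with introns.

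**Figure D5:**
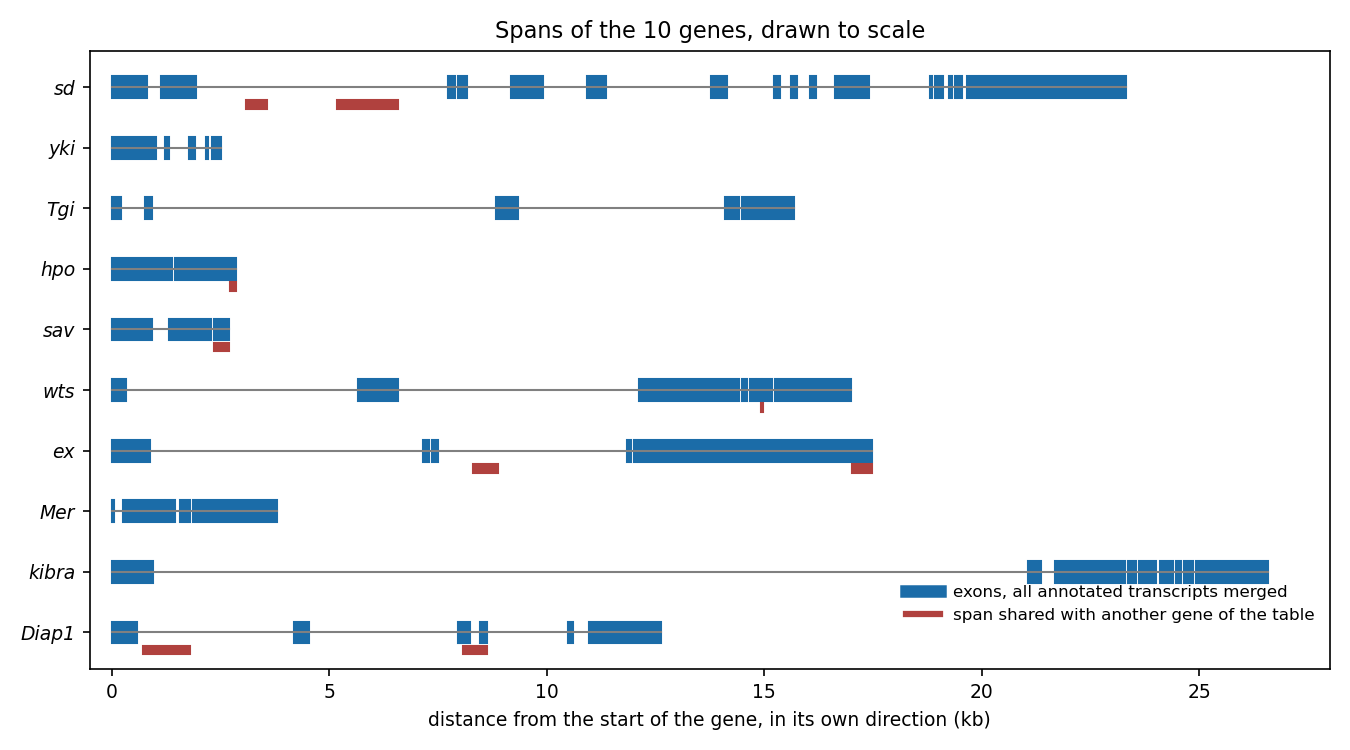
Spans of the 10 genes to scale, by distance in kb from the start of each gene in its own direction. Blue boxes are merged exons of all annotated transcripts, lines are introns and red bars are stretches shared with another gene of the table. *ex* has a red bar at its far end over 448 bp of exons, and *yki*, *Tgi*, *Mer* and *kibra* have none.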

How the data were processed

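RNA was measured in 3 libraries of *CycC* Y5 larvae, and no other group was used. The authors deposited whole-number counts per gene and per transposon family without normalization. Per the submitters' processing notes, STAR and dm6 were used; versions and the counting program are not given in the sources used here. In the transposon table each column name stands 1 cell left of its values and was read after this shift. The tables hold 11 columns of other libraries, which were not used.

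Gene symbols, found for 17865 of 17896 identifiers, exons and coding lengths came from the Ensembl annotation of BDGP6.54. Its coordinates equal those of the table for 17864 genes, and its listed lengths are spans with introns. CPM used the total of both tables. Merged exons gave the length per kb; coding length, listed length and, chosen after seeing the data, exons outside other genes were alternatives. With a single genotype no contrast between groups could be fitted. Whether counts varied between libraries was asked with a chi-square test given TMM library sizes (edgeR 4.0.16), for features reaching 10 counts in each library, Benjamini-Hochberg adjusted over 9898 features, threshold 0.05. Coefficients of variation came from edgeR with an intercept only. DESeq2 1.42.0, total counts, other filters, a threshold of 0.01, a pseudocount of 1 and each library left out were alternatives, in R 4.3.3 and Python 3.11.15 with SciPy 1.17.1. Ratios between members were tested with an exact permutation test (sign flips, two-sided).

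The members and lists were chosen with earlier results of these data known. Named genes are the 10 members, the highest, lowest and varying genes of each pathway list, the 3 nearest patterns of *sd* and *yki*, and genes overlapping a member. *mats*, *nerfin-1*, *CycE*, *vn*, *14-3-3zeta* and *Rbf* were named after their values were seen. On simulated counts with 9985 features, the chi-square test called 96 of 100 features changed 2-fold in one library, 100 of 100 changed 3-fold and 3 of 9785 unchanged ones; these counts held counting noise only.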

Additional observations from a re-analysis of the deposited data

How the results depend on the processing

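The 5 varying members did so with DESeq2 size factors, both other count filters and a threshold of 0.01. Total counts as library sizes gave 9 varying members and 5950 varying features (main values 5 and 3903), adding *yki*, *Tgi*, *hpo* and *Mer*. Leaving out a library gave 1 to 6 members and 1622 to 3172 features, lowest without library 3; the chi-square test then has fewer samples. The call of *sd* rests on library 1, those of *ex*, *kibra* and *Diap1* on library 3, and that of *wts* on both. Without library 3 the coefficient of variation of *ex* was 0.0954. The total without the 20 most counted features moved the CPM of all 10 members, by raising every level.

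The length decides the order of levels. With the listed length the log2 ratio of *Diap1* to *yki* was -0.38, *yki* to *hpo* -0.0225, *Tgi* to *sav* -2.18, *sd* to *Mer* -1.19 and *Tgi* to *sd* -0.88, all opposite in sign to the values per kb of exon. With the coding length *sav* to *sd* was -1.51, *yki* to *sd* -0.29 and *Tgi* to *sd* -0.97. Leaving out a library, a pseudocount of 1 and exons outside other genes reversed none of the 16 ratios, but the last took *Tgi* to *sav* from 0.25 to 0.000857. No paired analysis was possible because all 3 libraries share a single genotype. The lowest count of a member was 371, of *sav* in library 1.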
